A study of Mus musculus with 9 samples.

Results

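The transcripts of 10 C-type lectin receptors were followed in mouse bone-marrow-derived macrophages: Clec4a1, Clec4a2, Clec4a3, Clec4d, Clec4e, Clec4n, Clec5a, Clec7a, Clec10a and Clec12a. The genes were taken by symbol, and all 10 were found, in both deposited tables, among 24187 genes in all. Marrow cells of C57BL/6 mice aged 8 weeks were grown for 6 days in 10 ng/ml M-CSF, the growth factor that drives marrow progenitors to become macrophages, and this holds for every group. The control group was then kept for 6 h in medium alone. The LPS group received 500 ng/ml lipopolysaccharide, a cell wall component of Gram-negative bacteria, for 6 h. The last group received 500 ng/ml LPS together with 50 µM NCT503, a small-molecule inhibitor of phosphoglycerate dehydrogenase, the first enzyme of serine synthesis from glucose. Each group had 3 RNA-seq libraries. The labels do not say whether these came from separate mice or cultures, so the p-values speak only to the spread among these libraries, which may be technical.

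C-type lectin receptors are surface proteins with a carbohydrate-recognition-like fold that bind sugars and lipids of fungi, mycobacteria and dead cells. One class activates the kinase Syk, either through a partner chain with an ITAM signalling motif (FcRγ, encoded by Fcer1g, or DAP12, encoded by Tyrobp) or through a tyrosine motif in the receptor's own tail, and Syk signals on through the adaptor Card9. A second class carries an inhibitory ITIM motif that recruits phosphatases such as SHP-1 (Ptpn6). Others take up glycosylated ligands without either motif. Macrophages are a main site of expression of these classes.

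In the coordinates of mouse build mm10, 6 of the receptors lie on chromosome 6 within 368 kb (122921848 to 123289870), the Dectin-2 cluster. Their order is Clec4a1, Clec4a3, Clec4a2, Clec4n, Clec4d and Clec4e. The last pair, Clec4d on the plus strand and Clec4e on the minus strand, point at each other, with 6523 bases between their ends. Clec12a (129342691 to 129365303, plus strand) and Clec7a (129461591 to 129472779, minus strand) lie farther along, 96.3 kb apart. Genes between them were not looked up. Clec5a (40574894 to 40585821, minus strand) is on the same chromosome, and Clec10a (70156197 to 70170834, plus strand) is on chromosome 11. In GENCODE M21 none of the 10 shares exon sequence with an overlapping gene. Clec7a is annotated in the deposited tables as a polymorphic pseudogene.

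The 250 bases before the transcription start were available for 8 of the 10 genes from RefSeq (build GRCm38.p6) and were searched for 4 motifs on both strands: GGG followed by any 2 bases and TTTCC (NF-κB), TTGCNNAA (C/EBP), GAGGAAGT (PU.1) and GAAA, any 2 bases and GAAA (ISRE, bound by interferon-activated factors). The C/EBP letters were found before Clec4e and before Clec12a, and the other 3 motifs before none of the 8. Among 32851 promoter windows of this length, 9.56% held the C/EBP letters, 1.41% the NF-κB, 2.44% the PU.1 and 2.98% the ISRE letters. The window of Clec4e is shown because this gene had the largest changes from control, that of Clec4d because it is the convergent neighbour, and that of Clec12a because it holds the other C/EBP match. They run 5′ to 3′ on the gene's own strand, at chr6:123289872-123290121 (minus strand) for Clec4e, chr6:123261857-123262106 (plus strand) for Clec4d and chr6:129349994-129350243 (plus strand) for Clec12a, whose RefSeq start lies inside the deposited gene bounds. Capitals mark the C/EBP match, which starts 66 bases before the start of Clec4e (on the opposite strand) and 140 bases before that of Clec12a (a palindrome, read on both strands). Clec4d has no match to the 4 motifs in this window.
Clec4e: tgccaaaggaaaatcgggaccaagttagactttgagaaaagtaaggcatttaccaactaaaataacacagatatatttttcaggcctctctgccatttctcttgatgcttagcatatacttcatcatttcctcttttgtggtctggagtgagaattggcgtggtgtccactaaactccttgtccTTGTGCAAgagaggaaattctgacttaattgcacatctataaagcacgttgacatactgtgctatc
Clec4d: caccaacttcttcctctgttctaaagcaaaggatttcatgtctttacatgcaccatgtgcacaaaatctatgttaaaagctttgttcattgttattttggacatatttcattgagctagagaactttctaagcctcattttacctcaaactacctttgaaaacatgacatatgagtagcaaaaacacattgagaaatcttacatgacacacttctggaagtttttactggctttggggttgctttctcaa
Clec12a: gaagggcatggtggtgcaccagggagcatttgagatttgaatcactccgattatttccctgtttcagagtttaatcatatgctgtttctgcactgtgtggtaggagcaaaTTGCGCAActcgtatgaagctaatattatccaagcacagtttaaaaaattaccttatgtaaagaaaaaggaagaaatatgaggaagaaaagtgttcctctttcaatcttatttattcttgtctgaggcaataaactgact

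Library totals were 20295862 to 23599685 reads over the 21434 genes in both tables, and the receptors had 65 to 116257 reads in a library. Levels below are normalized reads, that is reads divided by the library's size factor over all 9 libraries, and group levels are mean ± SD (n = 3). Changes are differences of log2(normalized reads + 1) ± SE from limma, called where the Benjamini-Hochberg adjusted p over all tested genes was under 0.05. Size factors were 1.25 to 1.46 in control, 0.733 to 0.868 with LPS and 0.924 to 0.981 with LPS plus NCT503, so small changes depend on the scaling. Scaling by library totals alone (CPM) moved the log2 change of the median gene by −0.69 for LPS against control, 0.24 for LPS with NCT503 against LPS and −0.45 for LPS with NCT503 against control. TMM scaling moved the first by −0.10, and quantile normalization moved the 3 by 0.11, −0.19 and −0.12. In the order higher and lower, calls over all genes numbered 4089 and 4266 for LPS against control, against 2092 and 8536 under CPM. They numbered 3351 and 3098 for LPS with NCT503 against LPS (4405 and 2137 under CPM), and 4134 and 3927 for LPS with NCT503 against control (2452 and 6568 under CPM). The 10 macrophage markers, among them Adgre1, Csf1r, Cd68 and Lyz2, were present in every group, with a sum of 289008 to 371129 in control, 469488 to 546035 with LPS and 218422 to 285141 with LPS plus NCT503. LPS with NCT503 replicate 2 stood apart, with 9371 normalized reads of the integrin Itgax against 561 and 548 in its partners. It differed from them in other genes too, such as Itgam (936 against 2661 and 2835), Malt1 (7238 against 19169 and 18378) and Mmp8 (600 against 242 and 210). The fold changes of the receptors and the counts of other lectins and signalling genes for LPS with NCT503 are therefore given with and without this library. The counts of cell type markers are given with it only.

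**Figure D1:**
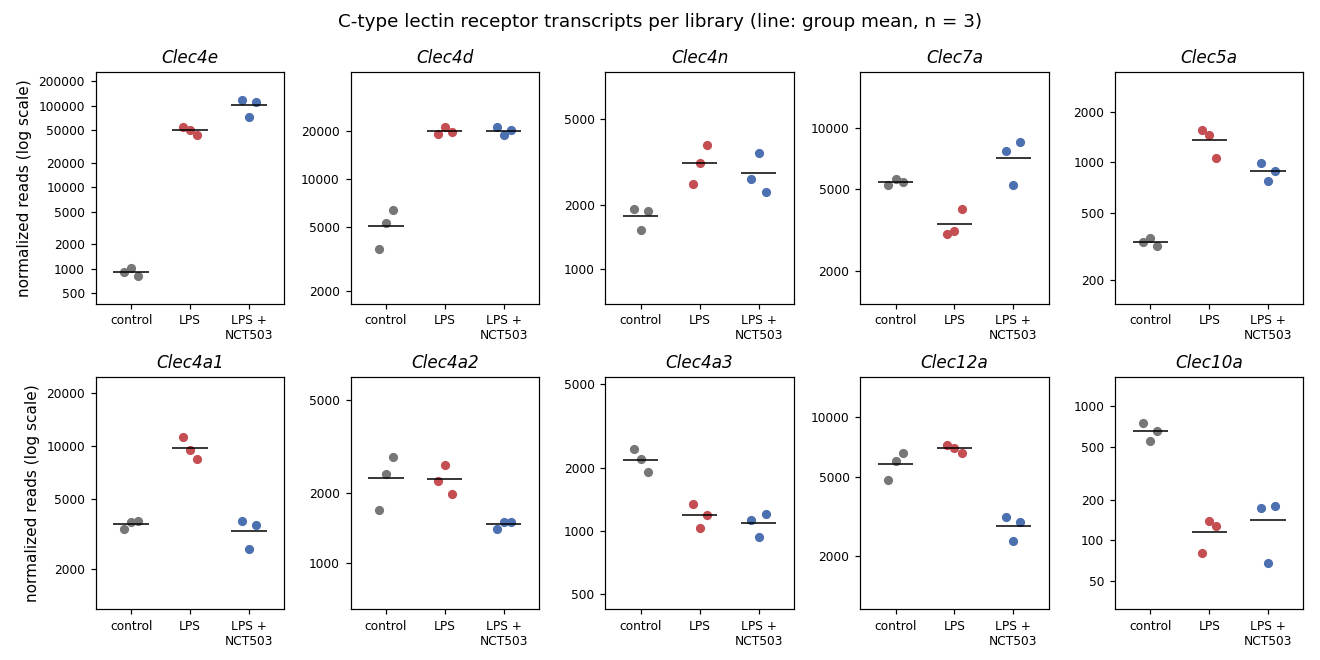
Normalized reads of each receptor (vertical log axis) in the 3 libraries of control, LPS and LPS with NCT503 (points), with the group mean as a line. Clec4e climbs from 815 to 1018 in control to 72752 to 118503 in LPS with NCT503, whereas Clec10a falls from 554 to 752 in control to 80.6 to 140 in LPS.

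With LPS alone, 8 of the 10 receptors passed the test, 5 of them higher (Clec4e, Clec4d, Clec5a, Clec4a1 and Clec4n) and 3 lower (Clec10a, Clec4a3 and Clec7a), where 41.8% of all tested genes passed (20.5% higher, 21.4% lower). The median change of the 10 was 0.54, and that of all tested genes was −0.05. The groups did not overlap in any library for 9 of the 10, against 50.8% of all genes. Among the 9 was Clec12a, which did not pass and whose lowest LPS library only just exceeded its highest control library. When NCT503 was present during LPS, 6 of the 10 differed from LPS alone, 2 higher (Clec4e and Clec7a) and 4 lower (Clec4a1, Clec12a, Clec4a2 and Clec5a), where 32.6% of all genes passed (16.9% higher, 15.7% lower). Their median change was −0.14 and that of all genes 0.08, and 6 of the 10 did not overlap, against 44.9% of all genes. Cells given LPS with NCT503 differed from control in 8 receptors, 4 higher (Clec4e, Clec4d, Clec5a and Clec4n) and 4 lower (Clec10a, Clec12a, Clec4a3 and Clec4a2), where 40.4% of all genes passed (20.7% higher, 19.7% lower). The median change was 0.11 against 0.05, and 8 did not overlap, against 50.2% of all genes. The first pair of comparisons shares the LPS libraries, and the comparisons with control share the control libraries, so each receptor's values are set side by side and not treated as independent.

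Several called changes differed in size by scaling without losing their call. For LPS against control, quantile normalization gave 1.04 for Clec4d, 0.57 for Clec4a1 and −1.46 for Clec7a (2.01, 1.43 and −0.69 in the reported fit), and CPM scaling gave 1.29 for Clec5a and −1.57 for Clec4a3 (1.99 and −0.87). For LPS with NCT503 against control, CPM scaling gave −1.08 for Clec4a2 and 0.93 for Clec5a (−0.63 and 1.39), and quantile normalization gave −1.57 for Clec12a and 1.36 for Clec4d (−1.05 and 2.01). Without LPS with NCT503 replicate 2, the differences from LPS of Clec4d (0.05), Clec4a3 (−0.0099) and Clec4n (−0.32) were not called. Without it, those from control were still called for Clec4d (2.05), Clec5a (1.48) and Clec4a3 (−0.89), and that of Clec4a1 (0.02) was not.

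**Figure D2:**
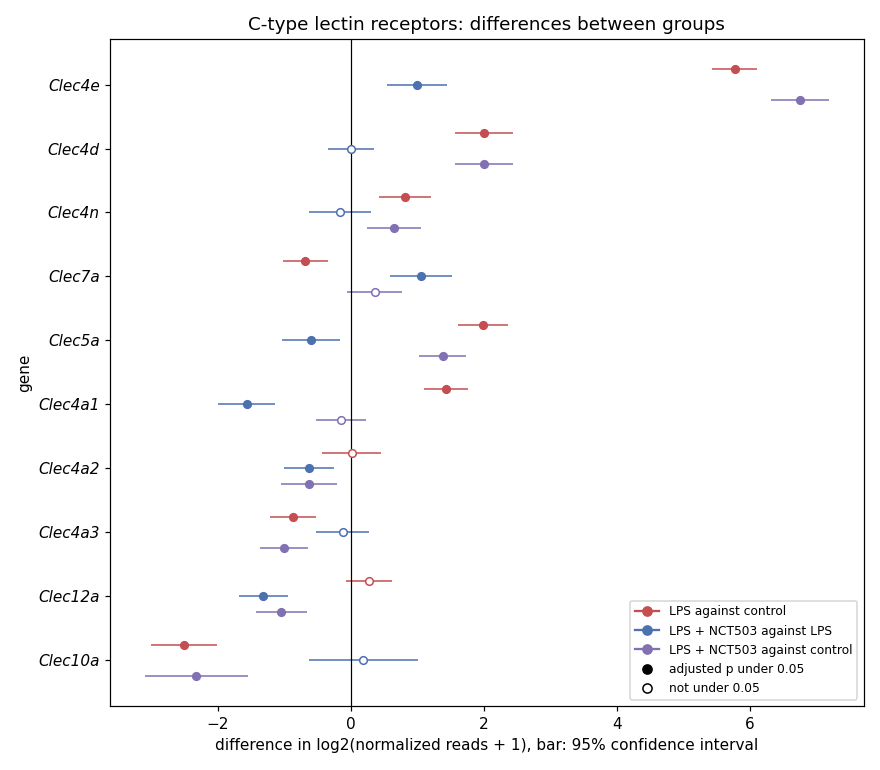
Difference in log2(normalized reads + 1) for each receptor (horizontal axis, point with 95% confidence interval) in the 3 comparisons, with filled points for adjusted p under 0.05 and open points for the rest. Clec4e stands at 5.77 for LPS against control and lies above 0 in all 3 comparisons, while Clec7a lies below 0 with LPS (−0.69) and above 0 when NCT503 is added (1.05).

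The largest changes from control were those of Clec4e, or Mincle, an FcRγ-coupled receptor for mycobacterial cord factor and for a protein released by dying cells. Its control libraries held 906, 1018 and 815 normalized reads, its LPS libraries 54649, 50274 and 44275, and its libraries of LPS with NCT503 118503, 72752 and 111098. Every LPS library exceeded every control library, and every library with NCT503 exceeded every LPS library. Clec4e rose with LPS by 5.77 ± 0.15 on the log2 scale (adjusted p = 4.68e-10 in limma). With NCT503 it rose by a further 0.99 ± 0.21 (adjusted p = 0.00354), which was 1.22 (adjusted p = 0.000230) without LPS with NCT503 replicate 2, the lowest of its group. Against control the group of LPS with NCT503 was higher by 6.76 ± 0.20 (adjusted p = 9.22e-09), and by 6.98 without that library. Per kb of transcript, Clec4e ranked 3948 of 21434 genes in control, 153 in LPS and 44 in LPS with NCT503.

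Clec4d, also called MCL or Dectin-3, is the neighbour of Clec4e, pairs with FcRγ, and is known to form complexes with Mincle. Clec4d had 3643, 5311 and 6347 normalized reads in control, 19168, 21173 and 19583 in LPS, and 21162, 18825 and 20055 in LPS with NCT503. All LPS libraries lay above the controls, and the libraries with NCT503 lay within or next to the range of LPS. Clec4d rose with LPS by 2.01 ± 0.20 (adjusted p = 9.41e-06 in limma). The difference with NCT503 was 0.00 ± 0.16 (adjusted p = 0.987), with a 95% interval of −0.34 to 0.34. Relative to control it was 2.01 ± 0.20 higher in LPS with NCT503 (adjusted p = 2.31e-05). The convergent neighbours therefore both rose with LPS, and of the pair Clec4e alone passed the test for a difference with NCT503.

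The level of Clec4e relative to Clec4d within a library does not depend on the size factors, and was compared after these values were seen. Per kb, Clec4e was 0.0413 to 0.0801 of Clec4d in control, 0.728 to 0.918 with LPS and 1.24 to 1.80 with LPS plus NCT503. In the last group replicate 2 had the 1.24, and the other 2 libraries 1.78 and 1.80. The ranges of the 3 groups were separate. On the log2 scale the ratio was 3.76 higher in LPS than in control and 0.99 higher in LPS with NCT503 than in LPS. The exact two-sided permutation p was 0.1 for each, the smallest that 3 libraries against 3 allow, so no adjustment over the 12 such tests (4 ratios in 3 comparisons) could reach 0.05.

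Clec4n, or Dectin-2, binds fungal mannans and is another receptor of the cluster that signals through FcRγ. Clec4n had 1904, 1521 and 1864 normalized reads in control, 2483, 3113 and 3770 in LPS, and 2628, 3493 and 2284 in LPS with NCT503. It was higher in LPS than in control by 0.82 ± 0.18 (adjusted p = 0.00318 in limma), a call lost under CPM scaling (0.11, adjusted p = 0.583) and quantile normalization (0.24, adjusted p = 0.265). LPS with NCT503 overlapped LPS, with a difference of −0.16 ± 0.21 (95% interval −0.62 to 0.31, adjusted p = 0.600). Against control LPS with NCT503 was 0.65 ± 0.18 higher (adjusted p = 0.0167, or 0.0202 without its replicate 2), and this call was lost under both scalings and without control replicate 2 (0.55, adjusted p = 0.0925).

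Clec7a, or Dectin-1, binds β-glucan of fungal walls and engages Syk through its own tail. Its control libraries held 5262, 5641 and 5454 normalized reads, its LPS libraries 3044, 3142 and 4028, and its libraries of LPS with NCT503 7653, 5240 and 8493. LPS was below control in every library, and LPS with NCT503 was above LPS in every library. Clec7a fell by 0.69 ± 0.15 on the log2 scale with LPS (adjusted p = 0.00382 in limma). With NCT503 it was 1.05 ± 0.21 higher than with LPS alone (adjusted p = 0.00295), and 1.26 higher (adjusted p = 0.000255) without LPS with NCT503 replicate 2. Against control the difference of 0.36 ± 0.19 did not pass (adjusted p = 0.154, 95% interval −0.05 to 0.77). It passed without that library (0.56, adjusted p = 0.00467), and it was −0.09 under CPM scaling and −0.21 under quantile normalization, neither called.

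Clec5a, or MDL-1, signals through DAP12 and is known as a receptor for viral glycans. Clec5a had 337, 356 and 319 normalized reads in control, 1564, 1450 and 1054 in LPS, and 995, 773 and 893 in LPS with NCT503. The 3 groups did not overlap, with LPS with NCT503 in between. Clec5a rose with LPS by 1.99 ± 0.17 (adjusted p = 3.35e-06 in limma) and was 1.39 ± 0.16 above control in LPS with NCT503 (adjusted p = 6.80e-05). The difference between LPS with NCT503 and LPS was −0.60 ± 0.20 (adjusted p = 0.0375). That call was lost in 7 of 15 alternative analyses: under CPM scaling (−0.35) and quantile normalization (−0.51), and without LPS replicate 1 or 2 or without any 1 of the libraries with NCT503 (−0.49 to −0.68, adjusted p 0.0545 to 0.121).

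Among the receptors of the DCIR group in the cluster, Clec4a1 (DCIR4) followed a different course from its neighbour Clec4a3 (DCIR3). Clec4a1 had 3361, 3708 and 3761 normalized reads in control, 11231, 9566 and 8499 in LPS, and 3763, 2605 and 3558 in LPS with NCT503. Its LPS libraries were above all others, and the control and NCT503 libraries overlapped. Clec4a1 rose with LPS by 1.43 ± 0.15 (adjusted p = 1.81e-05 in limma) and was 1.57 ± 0.19 lower with NCT503 than with LPS alone (a change of −1.57, adjusted p = 0.000107, and −1.40 without LPS with NCT503 replicate 2). Against control the difference was −0.14 ± 0.17 (adjusted p = 0.541, 95% interval −0.52 to 0.23). It was called lower under CPM scaling (−0.59, adjusted p = 0.0105) and quantile normalization (−0.63, adjusted p = 0.00525).

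Clec4a3 held 2455, 2199 and 1913 normalized reads in control, 1348, 1031 and 1197 in LPS, and 1135, 936 and 1212 in LPS with NCT503. Both LPS groups lay below control and overlapped each other. Clec4a3 fell with LPS by 0.87 ± 0.16 (adjusted p = 0.000969 in limma), and in LPS with NCT503 it fell by 1.00 ± 0.16 relative to control (adjusted p = 0.000729). The difference between LPS with NCT503 and LPS was −0.12 ± 0.18 (adjusted p = 0.636, 95% interval −0.52 to 0.28). Within a library and per kb, Clec4a1 was 1.17 to 1.67 times Clec4a3 in control, 6.05 to 7.90 times with LPS and 2.37 to 2.83 times with LPS plus NCT503. The ranges were again separate, with an exact permutation p of 0.1 in each comparison.

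Clec4a2, or DCIR1, carries an ITIM and restrains dendritic cell activation. Clec4a2 had 1680, 2408 and 2844 normalized reads in control, 2251, 2628 and 1972 in LPS, and 1393, 1494 and 1493 in LPS with NCT503. Control and LPS overlapped, and the libraries with NCT503 were the 3 lowest. LPS against control gave 0.01 ± 0.20 (adjusted p = 0.970, 95% interval −0.43 to 0.45), which turned to a called −0.69 (adjusted p = 0.00662) under CPM scaling and −0.57 (adjusted p = 0.0197) under quantile normalization. LPS with NCT503 was below LPS, with a change of −0.63 ± 0.17 (adjusted p = 0.0146 in limma), and below control by the same size (−0.63 ± 0.19, adjusted p = 0.0246). The first call was lost under CPM scaling (−0.39, adjusted p = 0.0968) and without LPS replicate 2 or LPS with NCT503 replicate 1 or 3 (−0.52 to −0.65, adjusted p 0.0536 to 0.0593). The second was lost without control replicate 2 or 3 or LPS with NCT503 replicate 1 or 3 (−0.46 to −0.65, adjusted p 0.0658 to 0.107). Without LPS with NCT503 replicate 2 both held, at −0.65 each.

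Clec12a, also an ITIM receptor, recognises uric acid crystals of dead cells and dampens inflammation. Clec12a had 4834, 6010 and 6613 normalized reads in control, 7234, 7012 and 6613 in LPS, and 3126, 2364 and 2943 in LPS with NCT503. The lowest LPS library met the highest control library, and all libraries with NCT503 lay below both groups. LPS against control gave 0.27 ± 0.16 (adjusted p = 0.192, 95% interval −0.07 to 0.62), and a called change of the opposite sign under CPM scaling (−0.43, adjusted p = 0.0137) and quantile normalization (−0.62, adjusted p = 0.00125). With NCT503 the level was lower than with LPS alone by 1.31 ± 0.17 (a change of −1.31, adjusted p = 0.000148 in limma) and lower than control (−1.05 ± 0.17, adjusted p = 0.000770). Without LPS with NCT503 replicate 2 these were −1.19 and −0.93, both called.

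Clec7a and Clec12a, an activating and an inhibitory receptor from the same part of chromosome 6, moved apart with NCT503. Within a library and per kb, Clec7a was 1.73 to 2.28 times Clec12a in control, 0.882 to 1.28 times with LPS and 4.64 to 6.05 times with LPS plus NCT503. The last range was above the other 2 in every library. The log2 ratio was 2.36 higher in LPS with NCT503 than in LPS (exact permutation p = 0.1). The ratio of Clec4e to Clec7a, in contrast, was 0.0794 to 0.0959 in control, 5.84 to 9.54 with LPS and 6.95 to 8.23 with LPS plus NCT503. The last pair of groups overlapped (exact permutation p = 0.9), so that the 2 receptors higher with NCT503 held a ratio within the range of LPS alone.

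Clec10a, or MGL1, binds galactose and N-acetylgalactosamine, takes up glycosylated ligands and is a known marker of alternatively activated macrophages. Clec10a had 752, 554 and 655 normalized reads in control, 80.6, 140 and 127 in LPS, and 175, 67.6 and 180 in LPS with NCT503. The control libraries stood above all others, and the LPS groups overlapped. Clec10a fell with LPS by 2.51 ± 0.22 (adjusted p = 4.30e-06 in limma) and was 2.32 ± 0.35 below control in LPS with NCT503 (a change of −2.32, adjusted p = 0.000584, and −1.86 without its replicate 2, the library at 67.6). The difference between LPS with NCT503 and LPS was 0.19 ± 0.38 (adjusted p = 0.729), and its 95% interval of −0.64 to 1.01 was wide. Without that replicate it was 0.65 (adjusted p = 0.0802). Of the 50-base stretches of its transcripts 9.02% are shared with another gene, 8.49% with its paralog Mgl2, so reads could be split between them. Mgl2 itself had 16.8 to 26.0 normalized reads in control, 8.06 to 19.7 with LPS and 0 to 3.06 with LPS plus NCT503. For Clec4a2 the shared part was 6.83%, mostly with Clec4a4 (3.85%), whose level was 10.9 to 40.1 in all libraries, and for the other receptors it was under 1%.

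The order of the receptors, compared per kb of the deposited gene length, changed between the groups. In control it was Clec4d (3190 ± 853 normalized reads per kb), Clec4a1 (2317 ± 139), Clec7a (2067 ± 71.9), Clec4a3 (1649 ± 204), Clec4n (1241 ± 148), Clec12a (1053 ± 164), Clec4a2 (790 ± 201), Clec10a (226 ± 34.1), Clec4e (184 ± 20.5) and Clec5a (87.9 ± 4.88). The SDs of Clec4d and Clec4a1, of Clec4n, Clec12a and Clec4a2 in turn, and of Clec10a and Clec4e overlapped. In LPS the order was Clec4d (12492 ± 662), Clec4e (10017 ± 1049), Clec4a1 (6268 ± 884), Clec4n (2199 ± 453), Clec7a (1291 ± 206), Clec12a (1258 ± 57.0), Clec4a3 (898 ± 119), Clec4a2 (780 ± 112), Clec5a (353 ± 69.7) and Clec10a (40.0 ± 10.8). Here Clec7a and Clec12a, and Clec4a3 and Clec4a2, were within their SDs. In LPS with NCT503 Clec4e (20299 ± 4946) stood above Clec4d (12517 ± 731), followed by Clec7a (2702 ± 640), Clec4a1 (2124 ± 397), Clec4n (1973 ± 439), Clec4a3 (825 ± 107), Clec12a (509 ± 72.0), Clec4a2 (499 ± 19.7), Clec5a (231 ± 28.9) and Clec10a (48.6 ± 21.9). Clec7a, Clec4a1 and Clec4n all overlapped one another, and so did Clec12a and Clec4a2. Without replicate 2 the order in this group was the same, with Clec4e at 23122 and Clec4d at 12888.

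The make-up of the 10 transcripts within a library, which size factors do not alter, shifted to Clec4e. Clec4e took 1.45 ± 0.226% of the reads per kb of the 10 receptors in control, 28.1 ± 1.87% in LPS and 48.2 ± 4.84% in LPS with NCT503 (mean ± SD, n = 3), where replicate 2 had 42.6% and the others 51.3% and 50.5%. Clec4d took 24.6 ± 4.59%, 35.1 ± 2.09% and 30.3 ± 3.36%. Clec4a1 held 18.1% in control, 17.6% in LPS and 5.07% in LPS with NCT503. The share of Clec7a was 16.2%, 3.65% and 6.43%, that of Clec4a3 13.0%, 2.53% and 1.98%, and that of Clec12a 8.19%, 3.53% and 1.22%. Shares of 1 set cannot all move one way, so a lower share does not mean a lower level. The sum of the 10 was 11600 to 13846 normalized reads per kb in control, 33892 to 36633 with LPS and 34413 to 46486 with LPS plus NCT503. In the last group replicate 2 had the 34413, within the range of LPS, and the others 46486 and 44280.

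**Figure D3:**
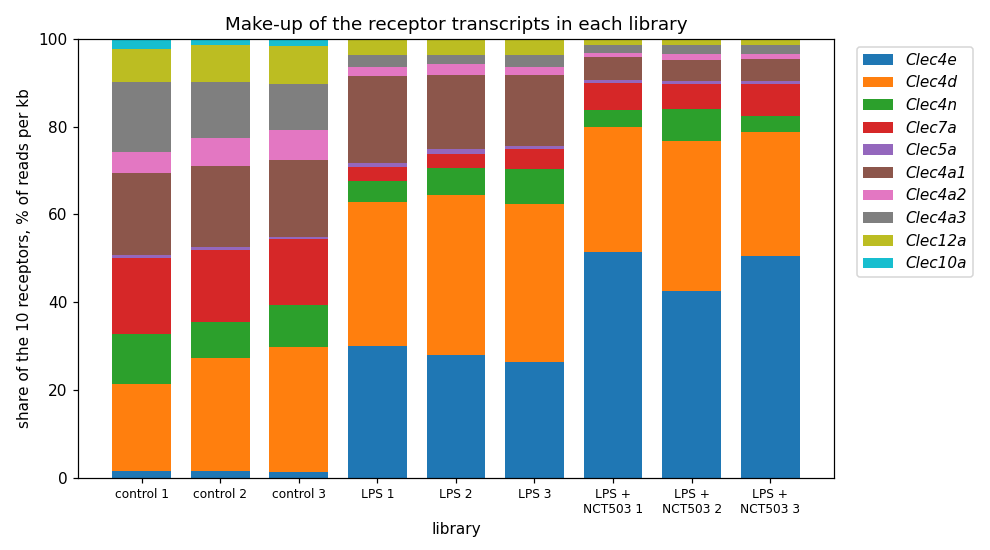
Share of each receptor in the summed reads per kb of the 10 receptors (vertical axis, percent) in each of the 9 libraries (stacked bars, in the order control, LPS, LPS with NCT503). The Clec4e part widens from a mean of 1.45% in control to 28.1% in LPS and 48.2% in LPS with NCT503, and the Clec4a1 part narrows to 5.07% in the last group.

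Over the 9 libraries, the genes whose log2 level followed that of a receptor most closely were found by Pearson's r among the 9411 genes that averaged at least 100 normalized reads. For Clec4e they were Ptgs2os2 (r = 0.997), a non-coding RNA beside the cyclooxygenase gene Ptgs2, the ubiquitin-conjugating enzyme Ube2d3 (0.997) and the transcription factor Ets2 (0.996), and 439 genes exceeded 0.95. For Clec7a they were Bzw2 (0.978), the transcription factor Foxo1 (0.972) and Pcyt1a (0.966), an enzyme of phosphatidylcholine synthesis, and 11 genes exceeded 0.95. For Clec10a they were Susd1 (0.978), the G protein regulator Rgs2 (0.967) and Ngrn (0.965), with 9 genes over 0.95. These correlations describe libraries that fall into 3 treatment groups and share their size factors. For Clec4e the step from control to LPS makes up most of the spread, so a high r does not show that a gene also differed with NCT503.

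A list of 27 other C-type lectins and related receptors gives the wider family, and 5 of them were not in both tables. With LPS, 21 were tested and 11 passed, 6 higher and 5 lower (median −0.38), where 41.8% of all genes passed (20.5% higher, 21.4% lower, median −0.05). Those with the smallest p were Cd69, an early activation receptor (6.84 ± 0.26 on the log2 scale, from 40.9 ± 16.1 to 4509 ± 433 normalized reads), the inhibitory ligand Clec2d (2.06 ± 0.16), the oxidised lipoprotein receptor Olr1 (5.09 ± 0.41) and Clec2i (−2.97 ± 0.25), a lectin-related gene of the same gene complex as Clec2d. With NCT503, 9 of 21 differed from LPS, 4 higher and 5 lower (median −0.28), where 32.6% of all genes did (16.9% higher, 15.7% lower, median 0.08). Without LPS replicate 3 the count was 6, with 4 higher and 2 lower. Cd69 was lower (−3.01 ± 0.23). Ly75, the endocytic receptor DEC-205 (2.06 ± 0.18), Mrc1, the macrophage mannose receptor (1.70 ± 0.22), and the scavenger receptor Colec12 (1.75 ± 0.27) were higher. Against control, 12 of 22 passed in LPS with NCT503, 5 higher and 7 lower (median −0.35), where 40.4% of all genes passed (20.7% higher, 19.7% lower). Those with the smallest p were Ly75 (4.12 ± 0.18), Olr1 (6.51 ± 0.49), Cd69 (3.82 ± 0.33) and Clec2d (1.34 ± 0.14). Without LPS with NCT503 replicate 2 the counts were 10 against LPS and 13 against control, Colec12 was 1.48 higher than in LPS, Olr1 was 7.03 higher than in control, and the other named genes kept their calls. The normalized reads of Mrc1 were 4362 to 6561 in control, 1107 to 1834 with LPS and 3642 to 5237 with LPS plus NCT503, so that this receptor, like Clec7a, was lowest in LPS in every library.

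The signalling partners and regulators of these receptors (24 genes, all tested) passed in 21 cases with LPS, 13 higher and 8 lower (median 0.58), where 41.8% of all genes passed (20.5% higher, 21.4% lower). Under CPM scaling 10 were higher and 10 lower. The smallest p-values were those of the Src-family kinases Fgr (2.56 ± 0.14) and Src (3.40 ± 0.20), the paracaspase Malt1 (4.66 ± 0.24), which acts with Card9 and Bcl10, and the transcription factor Nfatc2 (−3.46 ± 0.17). With NCT503, 16 of 24 differed from LPS, 4 higher and 12 lower (median −0.58), where 32.6% of all genes did (16.9% higher, 15.7% lower, median 0.08). This count was 10 without LPS replicate 3, with 1 higher and 9 lower. Fgr (−2.56 ± 0.16), the phosphatase Ptpn6 (−2.36 ± 0.17), the kinase Prkcd (−1.66 ± 0.15), which phosphorylates Card9, and the exchange factor Vav1 (−1.12 ± 0.15) were lower. Against control, 17 of 24 passed in LPS with NCT503, 7 higher and 10 lower (median −0.11), where 40.4% of all genes passed (20.7% higher, 19.7% lower). Under CPM scaling 5 were higher and 14 lower. Those with the smallest p were Src (4.02 ± 0.16), Nfatc2 (−4.10 ± 0.22), Malt1 (6.12 ± 0.36) and Syk (1.69 ± 0.14). Without LPS with NCT503 replicate 2 the counts were 17 against LPS and 19 against control, Malt1 was 6.58 higher than control, and the other named genes kept their calls.

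The partner chains of the activating receptors and Syk were singled out after their values were seen. Fcer1g, which encodes the FcRγ partner of Clec4e, Clec4d and Clec4n, had 11068 to 16265 normalized reads in control, 23574 to 32945 with LPS and 12509 to 14526 with LPS plus NCT503. Its change was 1.01 ± 0.19 with LPS and −1.06 ± 0.18 with NCT503, both called, the first turning to −0.10 under quantile normalization. Tyrobp, the partner of Clec5a, changed by 0.15 ± 0.23 with LPS (adjusted p = 0.640 in limma), a value that turned to a called −0.56 under CPM scaling (adjusted p = 0.0189) and −0.92 under quantile normalization (adjusted p = 0.000256), and by −0.72 ± 0.22 with NCT503 (adjusted p = 0.0267). Syk had 8484 to 9291 normalized reads in control, 34617 to 38656 with LPS and 26934 to 30822 with LPS plus NCT503, and its difference with NCT503 of −0.36 ± 0.16 did not pass at the threshold of 0.05. In LPS with NCT503, therefore, the Clec4e level was the highest of the 3 groups while that of its partner chain Fcer1g overlapped control.

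**Figure D4:**
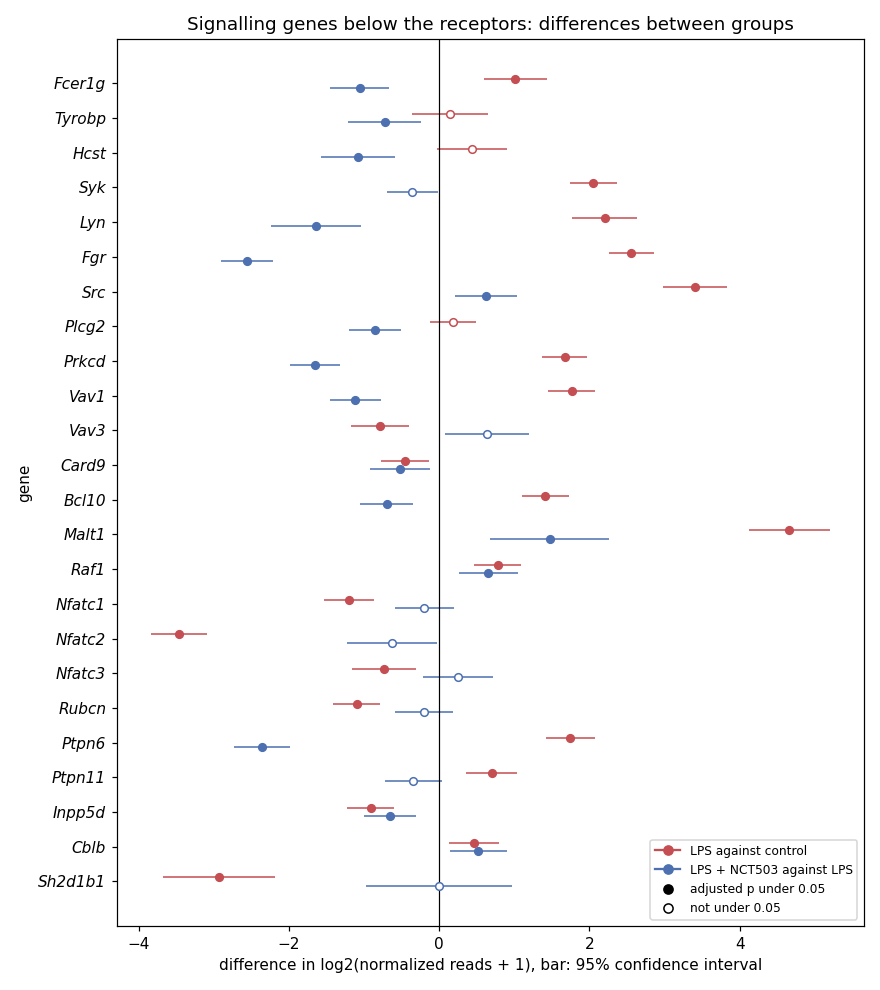
Difference in log2(normalized reads + 1) for the 24 signalling genes (horizontal axis, point with 95% confidence interval) in LPS against control and in LPS with NCT503 against LPS, with filled points for adjusted p under 0.05. Fgr, Prkcd, Ptpn6 and Vav1 lie to the right with LPS and to the left with NCT503, whereas Malt1 and Src lie to the right in both.

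Markers of other blood cells moved with the groups too, and several of these receptors are known in neutrophils and monocytes. The fall with NCT503 was not limited to them: 6 of the 10 macrophage markers were lower than with LPS alone and 0 higher. Their median change was −0.93, where 15.7% of all genes were lower and the median of all genes was 0.08. Compared with control, 4 of the 10 were lower and 1 higher (median −0.004), where 19.7% of all genes were lower and 20.7% higher. Mean levels in control, LPS and LPS with NCT503 were 4034, 83566 and 16543 for Cd14 and 14476, 55745 and 15507 for Spi1. They were 35850, 36258 and 38411 for Csf1r and 18615, 22770 and 23195 for Cd68. In a bulk library, fewer cells of a type and less RNA per cell cannot be told apart. Of 12 neutrophil markers 11 were in the tables, and their summed normalized reads were 7629 to 10702 in control, 14963 to 20561 with LPS and 4327 to 4930 with LPS plus NCT503. In the last group Cxcr2 and Retnlg had a mean under 1, and 9 of 11 tested markers were lower than in LPS and none higher, where 15.7% of all genes were lower. With LPS the sum followed Csf3r (3135 ± 39.5 to 13115 ± 1087), while Elane (729 ± 271 to 164 ± 112) and Mpo (1578 ± 497 to 459 ± 143) fell. Of the 11 markers 2 were higher and 3 lower with LPS (median −0.04), where 20.5% of all genes were higher and 21.4% lower. The 4 monocyte markers summed to 2684 to 4256 in control, 4693 to 10472 with LPS and 2431 to 3339 with LPS plus NCT503. All 4 were lower with NCT503 than with LPS alone, against 15.7% of all genes. With LPS 3 of the 4 were higher, against 20.5% of all genes, and Ccr2 fell from 564 ± 188 to 88.1 ± 37.0. The 7 markers of eosinophils, mast cells and basophils summed to 876 to 1007 in control, 1087 to 1619 with LPS and 225 to 252 with LPS plus NCT503. In the last group all 7 were lower than in LPS, against 15.7% of all genes. Dendritic cell markers (8 of 9 in the tables) summed to 583 to 685 in control, 1388 to 1486 with LPS and 928 to 9596 with LPS plus NCT503, the last value being the library with high Itgax. The 6 stromal markers summed to 5535 to 25366 in control, 16144 to 34982 with LPS and 16106 to 41302 with LPS plus NCT503. The highest control sum was that of replicate 1. The 6 T and NK cell markers summed to at most 201, and the B cell markers (2 of 4 in the tables) to at most 30.2. The part of these cells in the lower Clec4a1, Clec4a2, Clec12a and Clec5a of LPS with NCT503 was not tested.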

How the data were processed

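Expression was measured by RNA-seq in 9 libraries, 3 per group. Reads were aligned with TopHat2 to mm10, per the submitters' processing notes, while the counter, annotation and strand setting are not given in the sources used. The authors deposited 2 tables, for LPS against control (23001 genes) and for LPS with NCT503 against LPS (22620 genes). Each holds signal per library, reads divided by a size factor per the file headers and values, the gene length, and the authors' own log2 fold change (in log2 units) and p-value. Multiplying the signal by the recovered size factors gave whole reads for 100% of values in every library column (tolerance 0.001), so depth is known. Reads of the LPS libraries were identical between the tables (100% of values, 21434 shared genes), which allowed all 9 libraries to be joined. The planned count test, edgeR, became an alternative because the deposited unit is normalized.

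Genes averaging at least 1 normalized read in either group entered limma-trend (limma 3.58.1, R 4.3.3) on log2(normalized reads + 1), a scale that understates changes of low genes. Each of the first 2 comparisons used its own table with the authors' size factors, and LPS with NCT503 against control used median-of-ratios factors over the 9 libraries. Calls had a Benjamini-Hochberg adjusted p under 0.05. The limma fit was tried on simulated reads for LPS against control only. Far fewer genes changed there than were called here, so the simulation could not test the scaling when many genes change. Alternatives were a pseudocount of 0.1, no filter, TMM, CPM and quantile scaling, all 9 libraries in 1 fit, a replicate block, edgeR 4.0.16 and DESeq2 1.42.0 on the recovered reads, and leaving out each library.

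The members, lists and tests were chosen with earlier results of these data known. All 10 receptors are named, plus up to 4 called genes with the smallest p per list and comparison, and the 3 genes most like Clec4e, Clec7a and Clec10a. Mgl2, Clec4a4, Mrc1, Fcer1g, Tyrobp and Syk were also described with their values seen. One gene of the signalling list is not reported here. Sequences are from RefSeq and cover 8 of the 10 genes.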

Additional observations from a re-analysis of the deposited data

How the results depend on the processing

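Of 30 receptor results (10 receptors in 3 comparisons), 21 kept their direction, where called, and their side of the threshold under all 15 alternatives. The receptors called numbered 8 to 9 for LPS against control, 4 to 6 for LPS with NCT503 against LPS and 6 to 9 for LPS with NCT503 against control. Scaling turned the sign of some results. For LPS against control, CPM scaling turned Clec12a to −0.43, Clec4a2 to −0.69, Ptpn11 to −0.0041, Cblb to −0.24, Plcg2 to −0.52 and Tyrobp to −0.56. Quantile normalization turned Clec12a to −0.62, Clec4a2 to −0.57, Plcg2 to −0.55, Tyrobp to −0.92 and Fcer1g to −0.10. For LPS with NCT503 against control, Prkcd turned to −0.44 under CPM scaling and −0.59 under quantile normalization. For other receptors these scalings shifted called changes without turning them: under quantile normalization Clec4d rose with LPS by 1.04 and Clec4a1 by 0.57. The cause was not tested. Leaving out 1 library gave 10 to 17 signalling genes called for LPS with NCT503 against LPS, the lowest without LPS replicate 3, and for the other lectins the number without that library was 6 (9 with it). Whether replicate numbers pair the samples could not be decided, because deviations from the mean of only 3 libraries per group are not independent. The correlations of same-numbered libraries' deviations were 0.32, 0.15 and −0.0043 for LPS against control. They were 0.47, 0.47 and −0.14 for LPS with NCT503 against LPS. For LPS with NCT503 against control they were 0.16, −0.11 and −0.35. The libraries with NCT503 at 0.47 each correlated best with the LPS library of their own number. Not every library in the 3 comparisons correlated best with its own number. With the replicate block, 9714, 8186 and 8098 genes were called over all genes (8355, 6449 and 8061 without it), and 8, 6 and 8 receptors, as without it. Each receptor had at least 65 reads in every library. With 3 libraries per group, exact permutation tests of a single value cannot go below 0.1.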
